A study of Mus musculus with 6 samples.

Results

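The 10 genes described here are the core of the circadian clock and its direct output, taken by name from the 31053 genes of the count table. They are the activators Arntl and Clock, the repressors Per1, Per2, Per3, Cry1 and Cry2, the REV-ERB genes Nr1d1 and Nr1d2, and the output gene Dbp. All 10 were found in the table and all 10 passed the expression minimum (a mean of more than 10 normalized counts), as did 11633 genes in all. RNA-seq was performed on quiescent muscle stem cells (qMuSCs) that had been sorted from hindlimb muscles of 3 WT and 3 cD2KO mice at rest, with a library per mouse. All mice were 3 to 4 months old, carried the Pax7nGFP reporter used for sorting and floxed Dio2 alleles (Dio2Fl/Fl), and had received tamoxifen. The cD2KO mice (fl125, fl126 and fl128) also carried Pax7-CreERT2, a recombinase expressed from Pax7 that tamoxifen activates and that deletes Dio2, the gene of type 2 deiodinase (D2). The WT mice (c124, c129 and c130) were Pax7+/+ in its place, so that Cre and the Dio2 deletion go together in the comparison. Neither the labels nor the methods give the hour at which each mouse was killed, and the genes were therefore read mouse by mouse before the groups were compared.

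The circadian clock is a feedback loop that runs in nearly every cell, stem cells included, and keeps a period of about a day. BMAL1 (encoded by Arntl) and CLOCK bind E-box motifs together and switch on the Per, Cry, Nr1d and Dbp genes. The PER and CRY proteins then accumulate and block this pair, whereas the REV-ERB proteins repress Arntl itself and compete with the ROR activators for the same sites. DBP, TEF and HLF bind D-box motifs and pass the rhythm on to further genes. In most mouse tissues the Arntl transcript is therefore high when those of Dbp and Nr1d1 are low, and transcripts of Per2 and Cry1 peak later than those of Nr1d1 and Dbp.

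Promoter sequence was available in RefSeq (mm10, window from 250 bases before to 50 bases after a gene start) for 9 of the 10 genes, Per2 being without a window. Both strands were searched for 5 motifs. The E-box CACGTG was present in the windows of Cry1 and Per1 and in 7.15% of all 32851 windows. A variant of the E-box, CACGTT, was present for Cry1, Cry2 and Nr1d1 and in 4.68% of all windows. The D-box TTATGTAA was found in the window of Per3, where it occurred at 205 and 158 bases before the start, and in 0.938% of all windows. Its variant with the letters TTATGCAA was found in that of Per1 and in 0.743% of all windows. The nuclear receptor motif AGGTCA was present for Arntl, Clock, Nr1d2 and Per1 and in 16.3% of all windows. In Arntl it lay 31 bases after the start. Arntl and Per1 had 2 windows each and Clock had 3, and a gene was counted if any of its windows held the letters. The percentages are shares of single windows, so the genes and the percentages are not on the same footing. The Dbp window held none of these letters. A match describes the letters in the window and is not a measured binding site. The E-box variant lies on the opposite strand in Cry1 and in Nr1d1, where it reads AACGTG in the stretches below. The stretches that hold the E-box or D-box letters of 2 period genes, of a cryptochrome and of a REV-ERB gene are shown, with the matches in capitals.
Cry1 (chr10:85185079-85185163, minus strand, E-box variant then E-box): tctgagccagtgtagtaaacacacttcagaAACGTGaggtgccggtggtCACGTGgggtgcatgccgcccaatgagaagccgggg
Per1 (chr11:69098753-69098948, plus strand, E-box, nuclear receptor motif on the opposite strand, then D-box variant): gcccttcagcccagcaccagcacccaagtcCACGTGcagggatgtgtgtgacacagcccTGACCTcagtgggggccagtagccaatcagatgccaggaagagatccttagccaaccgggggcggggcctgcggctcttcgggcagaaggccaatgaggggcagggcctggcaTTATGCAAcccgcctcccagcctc
Per3 (chr4:151044786-151044900, minus strand, a pair of D-boxes): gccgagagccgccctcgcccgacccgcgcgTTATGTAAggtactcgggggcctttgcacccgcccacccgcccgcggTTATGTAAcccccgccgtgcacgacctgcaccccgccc
Nr1d1 (chr11:98775378-98775435, minus strand, E-box variant on the opposite strand): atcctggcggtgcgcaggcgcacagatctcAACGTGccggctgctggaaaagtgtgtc

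Total counts ranged from 2184073 to 3897787 per mouse, so that 3 counts, taken as the level below which a value is not told apart from 0, equal 0.773 to 1.37 CPM (counts scaled by the TMM method to a common library size). Dio2 itself was at 5.41, 1.86 and 3.48 CPM in the WT samples c124, c129 and c130 and at 6.83, 1.72 and 0.316 CPM in the cD2KO samples fl125, fl126 and fl128, below the expression minimum and overlapping between the groups. All 9 muscle stem cell markers were detected in every mouse, summing to 1410 to 1890 CPM in WT and 1630 to 2820 CPM in cD2KO. In cD2KO 3 of the 9 (Myf5, Cdh15 and Itga7) were called higher at an unadjusted p under 0.05 in the edgeR test. This threshold was passed by 5.34% of all genes tested as higher and by 6.62% as lower. The log2 fold changes of the 9 markers ran from -0.46 to 0.71, with 6 above 0 and 3 below. Transcripts of other cells were present as well. The 8 immune markers summed to 3610 to 6570 CPM in WT and 195 to 2450 CPM in cD2KO, with the library fl125 lowest (3 of 8 called lower). The 7 mural cell markers summed to 5140 to 9030 CPM in WT and 10500 to 15300 CPM in cD2KO (2 of 7 called higher). The called genes, Acta2 and Myh11, had log2 fold changes of 1.17 and 1. The other mural markers ranged from -0.36 (Kcnj8) to 0.25 (Cspg4), and the median of the 7 was 0. The 6 endothelial markers summed to 59.5 to 111 CPM in WT and 23.7 to 63.8 CPM in cD2KO (4 of 6 called lower), and Cldn5 was at 0 in fl126. The part of these cells in the clock transcripts was not tested, and in bulk RNA fewer cells of a type cannot be told apart from less RNA per cell. The library fl125 also stood apart on the first principal component over all genes (72.6, the other mice between -50.7 and 7.52). Xist had at most 1 count in any mouse and the Y-linked Ddx3y was at 94.5 to 155 CPM, so no difference in sex between the mice was seen. Of the 4 Y-linked genes tested 1 was called, Eif2s3y, which was lower in cD2KO (24.7 to 33.8 CPM in WT and 7.91 to 12 CPM in cD2KO).

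At the level of the groups few differences were called among the clock genes, and the mice within each group were not alike. With 3 mice per group, a lack of calls does not show that the groups were alike. The intervals of the log2 fold change left room for large differences in either direction in some genes. They ran from -1.23 to 1.02 for Nr1d2 and from -0.97 to 1.19 for Dbp. Those of Clock (-0.49 to 0.41), Per1 and Cry2 were narrower. In the edgeR quasi-likelihood test 1 of the 10 clock genes, Nr1d1, passed an unadjusted p of 0.05 on the higher side in cD2KO, and 0 passed on the lower side. Of all 11633 genes tested, 5.34% were higher and 6.62% lower by the same rule, 12.0% in all, so that 1 call among 10 genes is near the background share. With Benjamini-Hochberg adjusted p-values 0 of the 10 passed 0.05 with edgeR, DESeq2 or limma voom (0.00860% of all genes did with edgeR), and each of these tools called Nr1d1 alone before adjustment. The median log2 fold change of the 10 genes was -0.07, beside -0.02 for all genes tested, with 4 above 0 and 6 below. The groups overlapped in all 10 genes, so that 0 of 10 were separated, whereas 18.1% of all genes tested were (8.05% with cD2KO on the higher side). The median of the clock genes rested on single mice. It was 0.41 without WT mouse c130 and 0.19 without cD2KO mouse fl128, against -0.23 to -0.12 when any of the other mice was left out.

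**Figure D1:**
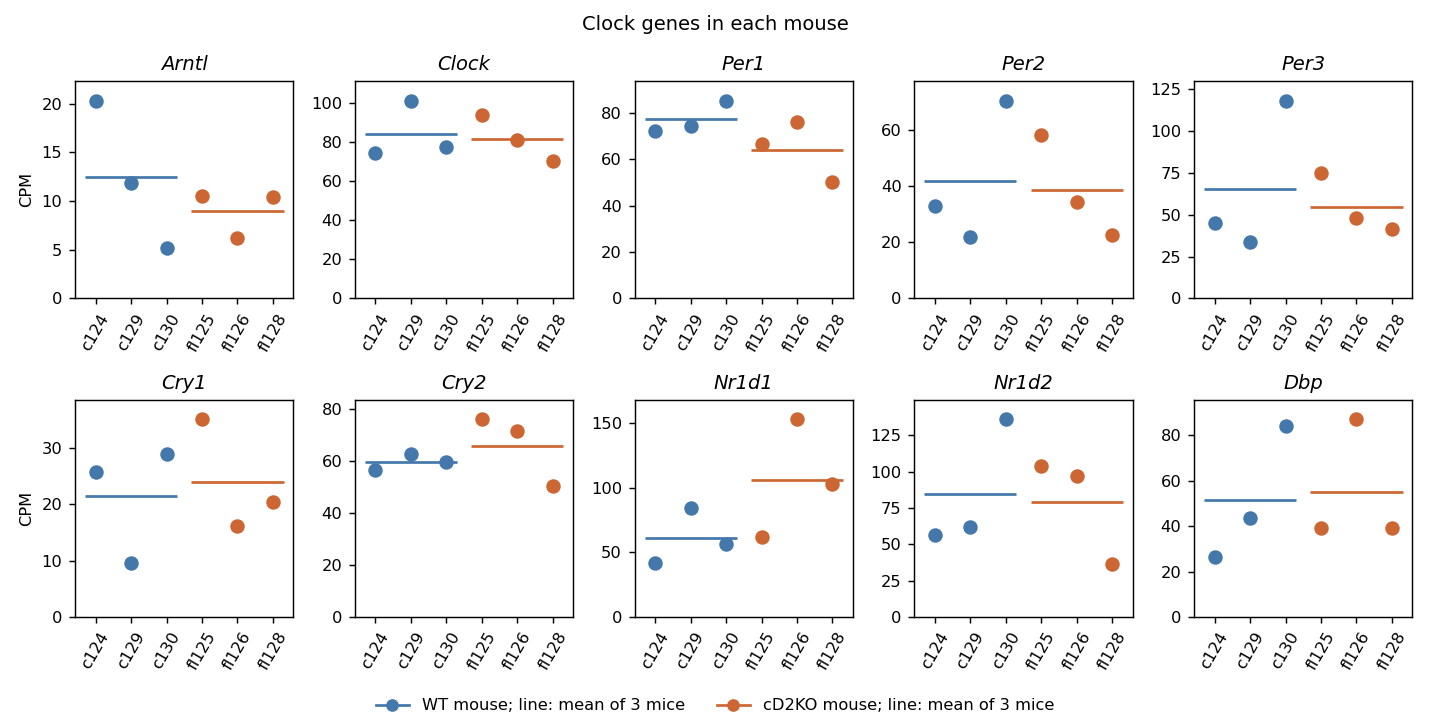
Expression of the 10 clock genes in each mouse in CPM (linear axis from 0), with WT mice in blue, cD2KO mice in orange and the mean of 3 mice as a line. The groups overlap in every gene, and in Per2, Per3 and Nr1d2 the WT mouse c130 is the highest of the 6 mice.

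Arntl (ENSMUSG00000055116, chromosome 7 from 113207465 to 113314126, plus strand) encodes BMAL1, the activator without which the loop does not turn. It was the lowest in counts of the 10 genes, with 79, 32 and 15 counts in c124, c129 and c130 and 23, 18 and 33 counts in fl125, fl126 and fl128. This corresponds to 20.3, 11.9 and 5.22 CPM in the WT mice and 10.5, 6.19 and 10.4 CPM in the cD2KO mice. The highest and the lowest mouse were both WT, 3.9 times apart, and their exact 95% Poisson intervals, which cover counting error only, did not meet (16.1 to 25.4 CPM in c124 and 2.92 to 8.61 CPM in c130). All cD2KO mice lay between these extremes. Mean levels were 12.5 ± 7.58 CPM for WT and 9.03 ± 2.46 CPM for cD2KO (± SD over 3 mice), and the log2 fold change was -0.48 (95% interval -1.54 to 0.58, edgeR adjusted p = 0.763). Without c124 the log2 fold change was 0.08.

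Clock (ENSMUSG00000029238, chromosome 5 from 76209868 to 76304792, minus strand) encodes the partner of BMAL1, whose transcript cycles weakly in most tissues. It was at 74.2, 101 and 77.3 CPM in the WT samples c124, c129 and c130 and at 93.8, 81.2 and 70.1 CPM in the cD2KO samples fl125, fl126 and fl128. The 6 mice were within 1.44-fold of each other and the groups were interleaved. The log2 fold change was -0.04 (95% interval -0.49 to 0.41, edgeR adjusted p = 0.964), so that changes beyond these bounds are outside the interval.

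Among the period genes, Per2 and Per3 varied widely between mice and Per1 did not. Per1 (ENSMUSG00000020893, chromosome 11 from 69095217 to 69109960, plus strand), whose promoter stretch with an E-box is shown above and which also responds acutely to glucocorticoid and cAMP signals, was at 72.1, 74.6 and 85.3 CPM in c124, c129 and c130 and at 66.5, 76.0 and 50.2 CPM in fl125, fl126 and fl128. Its values spanned 1.7-fold, with fl128 lowest and fl126 within the WT range. The log2 fold change was -0.27 (95% interval -0.73 to 0.19, edgeR adjusted p = 0.689).

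Per2 (ENSMUSG00000055866, chromosome 1 from 91415982 to 91459324, minus strand), a repressor needed for a stable rhythm, was at 33.0, 21.9 and 70.3 CPM in the WT samples c124, c129 and c130 and at 58.3, 34.4 and 22.4 CPM in the cD2KO samples fl125, fl126 and fl128. Per3 (ENSMUSG00000028957, chromosome 4 from 151003652 to 151044665, minus strand), the period gene with a pair of D-boxes in its window, followed the same order of mice in each group, at 45.3, 33.4 and 118 CPM in WT and 74.7, 48.2 and 41.4 CPM in cD2KO. In both genes c130 was highest, fl125 second and c129 lowest. The groups overlapped completely, since the highest and the lowest mouse were WT. The log2 fold changes were -0.13 for Per2 (95% interval -1.17 to 0.90, edgeR adjusted p = 0.950) and -0.27 for Per3 (95% interval -1.36 to 0.83, edgeR adjusted p = 0.888). Without c130 both were 0.46. Per3 lies 11.17 Mb from Pax7 on chromosome 4 and within the annotated span of Camta1 on the same strand, without shared exonic bases.

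Cry1 (ENSMUSG00000020038, chromosome 10 from 85131700 to 85185064, minus strand) encodes the cryptochrome that holds repression longest, and its promoter stretch carries both an E-box and its variant. It was at 25.8, 9.65 and 28.9 CPM in c124, c129 and c130 and at 35.1, 16.2 and 20.5 CPM in fl125, fl126 and fl128, a range of 3.63-fold. The WT mouse c129 was lowest, as for Per2 and Per3, and fl125 was highest. Its paralog Cry2 (ENSMUSG00000068742, chromosome 2 from 92403646 to 92434043, minus strand) spanned 1.51-fold, at 56.4, 62.7 and 59.5 CPM in WT and 76.1, 71.5 and 50.5 CPM in cD2KO. The cD2KO mice fl125 and fl126 lay above the WT mice in Cry2 and fl128 below them. The log2 fold changes were 0.14 for Cry1 (95% interval -0.75 to 1.02, edgeR adjusted p = 0.940) and 0.15 for Cry2 (95% interval -0.32 to 0.62, edgeR adjusted p = 0.861).

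Nr1d1 (ENSMUSG00000020889, chromosome 11 from 98767932 to 98775333, minus strand) encodes REV-ERB alpha, the nuclear receptor that represses Arntl. It was the clock gene called between the groups. Its values were 41.5, 84.3 and 56.7 CPM in the WT samples c124, c129 and c130 and 61.5, 153 and 103 CPM in the cD2KO samples fl125, fl126 and fl128. The cD2KO mice fl126 and fl128 lay above all WT mice, whereas fl125 fell below the WT mouse c129. Mean levels were 60.8 ± 21.7 CPM for WT and 106 ± 45.7 CPM for cD2KO (± SD over 3 mice), and the log2 fold change was 0.81 (SE 0.34, 95% interval 0.07 to 1.55). The unadjusted p of edgeR was 0.0355 and the adjusted p was 0.380. The call was lost in 4 of the 6 fits that left out a mouse. The log2 fold change was 0.59 without c124, 0.76 without c130, 0.45 without fl126 and 0.83 without fl128 (edgeR unadjusted p of 0.124, 0.0993, 0.198 and 0.0816), and it was 1.14 without c129 and 1.12 without fl125, where the call held (edgeR unadjusted p of 0.00846 and 0.00114). With a score of the immune or mural markers as a covariate it was 1.55 or 1.24 (edgeR unadjusted p of 5.54e-05 and 0.00137). The immune score itself separates the groups. With a score of immediate early genes the log2 fold change of Nr1d1 was 1.49 (edgeR unadjusted p of 0.000907). With a score of Y-linked genes it was -0.10 (edgeR unadjusted p of 0.861). The call was also lost with scaling to total counts and with a minimum mean of 50 (edgeR unadjusted p of 0.0543 and 0.0512).

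The 3′ end of Nr1d1 overlaps that of Thra, the gene of thyroid hormone receptor alpha, on the opposite strand, with 263 exonic bases in common. Since the use of strand in counting is not given in the sources used here, reads in that stretch cannot be assigned with certainty. Thra was at 343, 306 and 324 CPM in c124, c129 and c130 and at 409, 447 and 415 CPM in fl125, fl126 and fl128, and the groups did not overlap (log2 fold change 0.39, 95% interval -0.01 to 0.78, edgeR adjusted p = 0.436). The cD2KO mice had the same order in both genes, from fl125 to fl128 to fl126, whereas the WT mice had opposite orders, with c129 highest in Nr1d1 and lowest in Thra. The part of shared reads in either gene was not tested.

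**Figure D2:**
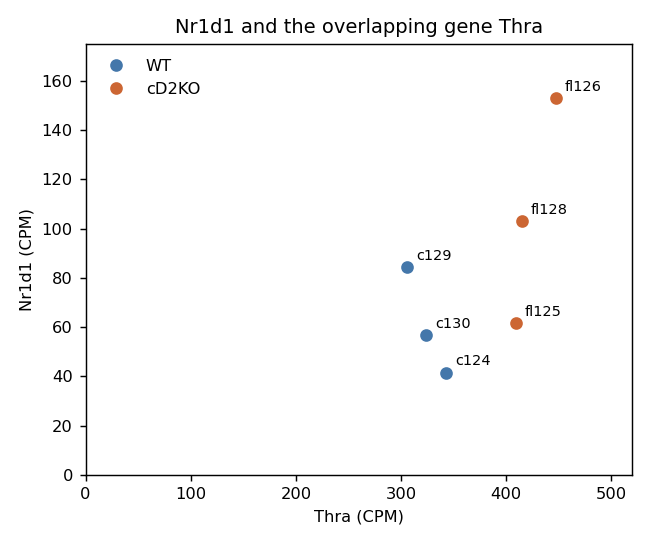
CPM of Nr1d1 (vertical axis) against CPM of Thra (horizontal axis), both linear from 0, with a point per mouse, WT in blue and cD2KO in orange. The groups are separated along the Thra axis and overlap along the Nr1d1 axis, where fl125 (61.5 CPM) lies below c129 (84.3 CPM).

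Nr1d2 (ENSMUSG00000021775, chromosome 14 from 18204054 to 18239127, minus strand) encodes REV-ERB beta, which acts on the same sites. It did not move with its paralog. It was at 56.7, 61.6 and 136 CPM in the WT samples c124, c129 and c130 and at 104, 97.3 and 36.6 CPM in the cD2KO samples fl125, fl126 and fl128. The mouse fl128, second highest in Nr1d1, was the lowest of all in Nr1d2. The log2 fold change was -0.10 (95% interval -1.23 to 1.02, edgeR adjusted p = 0.962), and without c130 it was 0.42. Per mouse, the Nr1d1 level relative to that of Nr1d2 (each as log2 CPM minus its mean over the 6 mice) was -0.46, 0.43 and -1.28 in WT and -0.77, 0.63 and 1.46 in cD2KO, so that these differences overlapped between the groups too.

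Dbp (ENSMUSG00000059824, chromosome 7 from 45705088 to 45710203, plus strand) encodes the D-box factor whose transcript is among the most strongly cycling in mammals. It was at 26.5, 43.4 and 84.2 CPM in c124, c129 and c130 and at 39.2, 87.0 and 39.2 CPM in fl125, fl126 and fl128. A mouse of each group, c130 and fl126, stood at the same high level, and the other 4 mice lay at 26.5 to 43.4 CPM. The exact 95% Poisson intervals of these high mice (74.0 to 95.5 and 76.6 to 98.4 CPM) did not meet that of c129 (35.9 to 52.1 CPM). Mean levels were 51.4 ± 29.7 CPM for WT and 55.1 ± 27.6 CPM for cD2KO (± SD over 3 mice), and the log2 fold change was 0.11 (95% interval -0.97 to 1.19, edgeR adjusted p = 0.960), which became -0.21 without c124, 0.67 without c130 and -0.38 without fl126. Dbp shares 539 exonic bases with Sphk2 on the opposite strand, which was at 30.1 to 57.2 CPM and was highest in c124, where Dbp was lowest.

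**Figure D3:**
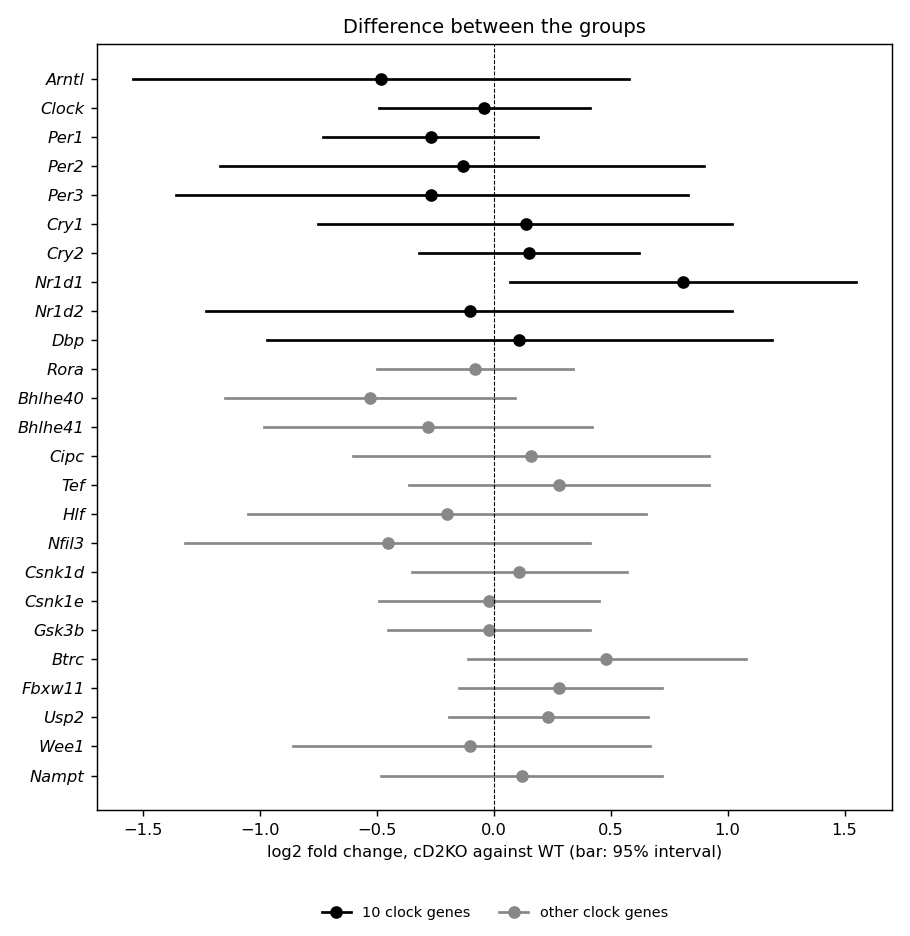
Log2 fold change of cD2KO against WT with its 95% interval (bars) for the 10 clock genes in black and for 15 of the 17 other clock genes that were tested in gray. The interval of Nr1d1 (0.07 to 1.55) is the one that excludes 0.

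The activator and repressor arms were then compared within each mouse, as log2 CPM minus the gene's mean over the 6 mice, averaged over the genes of an arm. These values were described without a test. In the WT mouse c124, Arntl was the highest of all mice, Dbp stood at -0.86 and the REV-ERB genes at -0.63, the pattern of high Arntl and low output. In the WT mouse c130 the signs were turned, with Arntl at -0.83, Dbp at 0.79 and the 5 Per and Cry genes at 0.54. The cD2KO mouse fl126 resembled c130 in Arntl (-0.61) and Dbp (0.83), but its Per and Cry genes stood at -0.06 and its REV-ERB genes at 0.69. Thus c130 and fl126 shared low Arntl and high Dbp and differed in their repressors. Per2, Per3 and Cry1 stood at 0.94, 1.1 and 0.45 in c130 and at -0.08, -0.18 and -0.36 in fl126. Nr1d1 was at -0.42 in c130 and at 1 in fl126. Nr1d2 was above its mean in both mice, at 0.86 in c130 and 0.37 in fl126.

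The remaining mice were less extreme in Arntl and Dbp. In fl125 Arntl was at 0.09, Dbp at -0.30 and the Per and Cry genes at 0.41. In fl128 Arntl was at 0.08, Dbp at -0.30 and the Per and Cry genes at -0.38. In c129 Arntl was at 0.26, Dbp at -0.16 and the Per and Cry genes at -0.47, the lowest of the 6 mice. Arntl minus Dbp was 1.86, 0.42 and -1.62 in c124, c129 and c130 and 0.39, -1.44 and 0.39 in fl125, fl126 and fl128. This difference ranged over 3.48 within WT and 1.84 within cD2KO on the log2 scale, whereas the group means were 0.44 apart. Activators (the mean of Arntl and Clock) minus the 5 repressors was 0.07 ± 0.94 in WT and -0.07 ± 0.33 in cD2KO (± SD over 3 mice). All cD2KO mice, from -0.27 to 0.30, lay inside the WT range, which spanned 1.75 with c130 lowest and c129 highest at 0.75.

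**Figure D4:**
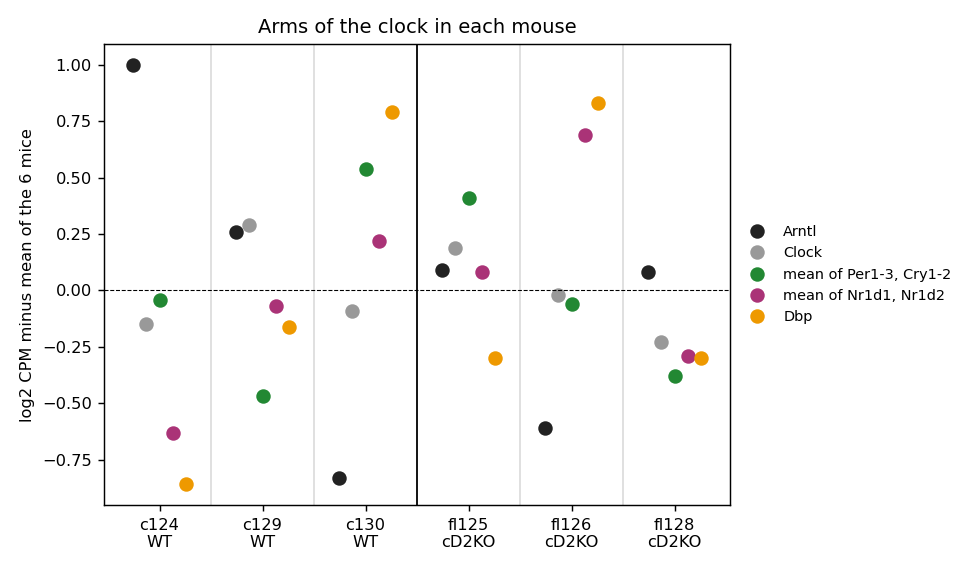
Log2 CPM minus the mean of the 6 mice (vertical axis) for Arntl, Clock, the mean of the Per and Cry genes, the mean of the REV-ERB genes and Dbp in each mouse. Arntl and Dbp lie at opposite ends in c124, c130 and fl126, and the largest contrast within a group is that between the WT mice c124 and c130.

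The spread between mice of the same group was large for 7 of the 10 clock genes. The SD of log2 CPM, pooled over both groups, was 0.71 for the median clock gene and 0.37 for the median of all genes tested. Nr1d2, Per2, Dbp, Per3, Arntl, Cry1 and Nr1d1 had a pooled SD of 0.58 to 0.77, above the 75th percentile of all genes. The SD that counting alone gives was 0.10 to 0.20 for these genes other than Arntl, for which it was 0.29. Clock, Per1 and Cry2 had a pooled SD of 0.22 or 0.23, at percentiles 19.4, 21.4 and 20.8. Dispersion relative to the trend of genes with like expression, as estimated by edgeR, was 3.51 for Nr1d2, 3.26 for Per3, 3.1 for Dbp and 2.63 for Per2, at percentiles 98.3, 98.2, 98.0 and 97.6 of all genes. The ratio was 0.829 for Clock, 0.831 for Per1 and 0.818 for Cry2, below the median of 0.895.

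**Figure D5:**
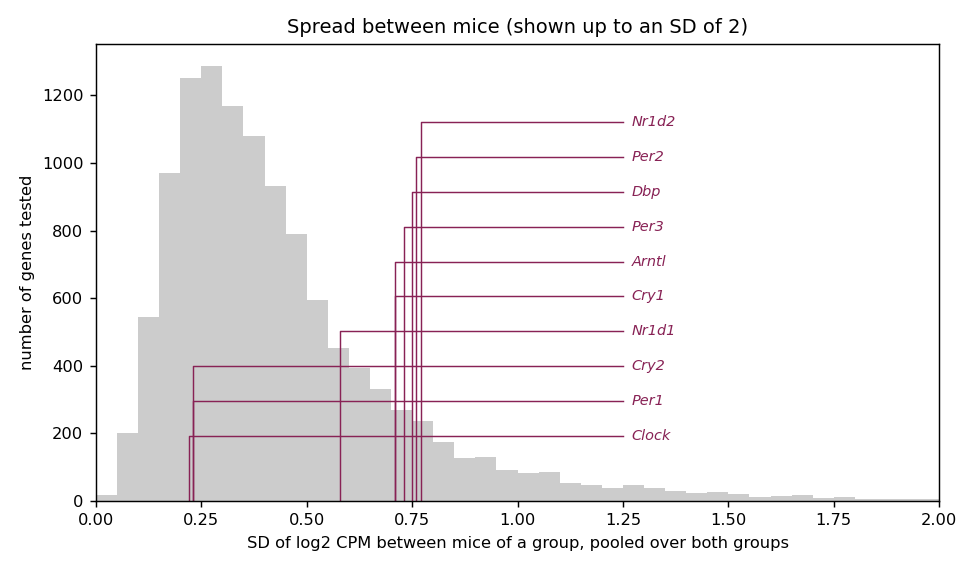
Number of genes (vertical axis) by the SD of log2 CPM between mice of a group, pooled over both groups (horizontal axis), with the 10 clock genes marked by lines. Clock, Per1 and Cry2 lie left of the median of all genes (0.37), and the other 7 lie between 0.58 and 0.77.

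A further 22 genes of the clock pathway were examined, of which 17 passed the expression minimum. By edgeR 0 of the 17 were higher and 0 lower at an unadjusted p under 0.05, beside 5.34% higher and 6.62% lower among all genes tested. DESeq2 and limma voom also called 0 of the 17. Their median log2 fold change was -0.02, equal to that of all genes tested. The SD between mice had a median of 0.28 for these genes, below that of all genes. The largest differences by p were those of Bhlhe40, which encodes an E-box repressor, and Btrc and Fbxw11, which encode the F-box proteins that mark PER for degradation. Bhlhe40 was at 40.9, 62.0 and 41.4 CPM in c124, c129 and c130 and at 40.1, 38.2 and 21.8 CPM in fl125, fl126 and fl128 (log2 fold change -0.53, 95% interval -1.15 to 0.09, edgeR adjusted p = 0.502). Btrc was at 19.6, 18.2 and 21.2 CPM in WT and 29.6, 27.9 and 25.3 CPM in cD2KO (log2 fold change 0.48, 95% interval -0.11 to 1.08, edgeR adjusted p = 0.524). The groups did not overlap in Bhlhe40 and Btrc, 2 of the 17 genes, beside 18.1% of all genes tested, and neither was called. Fbxw11 and the output gene Usp2, a ubiquitin protease, had log2 fold changes of 0.28 and 0.23 with overlapping groups.

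Among the D-box factors, Tef and Hlf shared their high mice and Dbp had others. Tef, an activator related to Dbp, was at 196, 162 and 326 CPM in c124, c129 and c130 and at 368, 276 and 187 CPM in fl125, fl126 and fl128. Its high mice were c130 and fl125, as in Per2 and Per3, and not c130 and fl126 as in Dbp. Hlf had the same high mice, with 37.9 CPM in c130 and 36.0 CPM in fl125 against 15.2 to 21.4 CPM in the others. Nfil3, which encodes the repressor at the same sites, was at 17.0, 19.7 and 9.40 CPM in WT and 8.20, 10.3 and 14.8 CPM in cD2KO, with c130 and fl125 at the low end. The log2 fold changes were 0.28 for Tef, -0.20 for Hlf and -0.45 for Nfil3, and each interval included 0.

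Of the ROR activators, which drive Arntl, Rora was at 125 to 176 CPM in the 6 mice with a log2 fold change of -0.08 (95% interval -0.50 to 0.34), and Rorb fell below the minimum. The kinases that phosphorylate PER, Csnk1d, Csnk1e and Gsk3b, had log2 fold changes of 0.11, -0.02 and -0.02. Bhlhe41 and Cipc, repressors like Bhlhe40, were at -0.28 and 0.16, and the outputs Wee1 and Nampt were at -0.10 and 0.12. The activator paralogs Npas2 and Arntl2, with Rorb, Ciart and Fbxl21, were too low to be tested, at most 3.83 CPM in any mouse.

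Signals other than the loop can act on Per1, and genes that report them were read in the same mice. Of 6 glucocorticoid targets 1, Sgk1, was lower in cD2KO (log2 fold change -0.72, 95% interval -1.20 to -0.23, edgeR adjusted p = 0.194), and the 6 genes summed to 1120 to 1330 CPM in WT and 931 to 1190 CPM in cD2KO. Of 11 immediate early genes that tissue dissociation induces, 7 passed the same threshold as lower and 0 as higher in the edgeR test, against 6.62% lower among all genes. These genes summed to 2460, 7430 and 3930 CPM in c124, c129 and c130 and to 2190, 2880 and 2140 CPM in fl125, fl126 and fl128. The mouse c129, with the highest sum, was at 74.6 CPM in Per1, between the other WT mice. The same mouse was the highest of all in Clock and the lowest of all in Per2, Per3 and Cry1. The part of the dissociation response in the clock transcripts was not tested.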

How the data were processed

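Reads of qMuSCs from 3 WT and 3 cD2KO mice were aligned by the authors with STAR (default options, mm10), and whole-number counts per gene, not normalized, were deposited for each mouse. The submitters' processing notes name STAR 2.6.0a and HTSeq 0.9.1. The annotation, the strand setting and any step on PCR duplicates are not given in the sources used here. Groups came from the genotype in the sample labels. Symbols and coordinates were taken from GENCODE M21 (mm10), which held 31011 of the 31053 identifiers, and promoter windows from RefSeq (GRCm38.p6, the assembly of mm10).

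The study's minimum, a DESeq2 base mean over 10, was applied. TMM-scaled counts were compared by edgeR 4.0.16 quasi-likelihood fits (R 4.3.3, robust, no covariate), fitted on all 6 mice and 11633 genes with Benjamini-Hochberg adjustment. A call is an unadjusted p under 0.05, the line of the study's volcano plot. Log2 CPM used a prior count of 2. All libraries differed from each other by more than counting noise (lowest chi-square per degree of freedom 8.69). The scripts were tested on simulated counts. Alternatives were DESeq2 1.42.0, limma 3.58.1 voom, other scalings and filters, a non-robust fit, marker scores as covariates, an adjusted threshold and each mouse left out. Genes named are the 10 clock genes, the 6 other clock genes with the smallest p, others by role, overlapping genes, Dio2 and Pax7. The genes and lists were chosen with earlier results of these data known. Hlf, Rora, Sgk1, Myf5, Cdh15, Itga7, Acta2, Myh11, Kcnj8, Cspg4, Cldn5, Xist and Ddx3y are named as members of lists with that knowledge. Results for 2 of the other clock genes are not reported here.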

Additional observations from a re-analysis of the deposited data

How the results depend on the processing

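No paired analysis was possible because the labels give the mice no numbers shared between the groups. The count of clock genes higher in cD2KO was 0 with scaling to total counts, with a minimum mean of 50, with a score of Y-linked genes as a covariate and at an adjusted p under 0.05, and 0 to 1 with single mice left out. With the Y-linked score Dbp was called lower, so that 1 was lower. The score includes Eif2s3y, itself lower in cD2KO (log2 fold change -1.56), and the cause of what it changed was not tested. Of the other clock genes 1, Hlf, was lower with the immune score, and 0 to 1 were higher with single mice left out (Fbxw11 without fl125). Over all genes the higher count was 939 without a minimum, 362 with the Y-linked score, 266 with the immediate early gene score, 1 at an adjusted p under 0.05 and 402 to 933 with single mice left out. The lower count was 505 with a minimum mean of 50, 424 with the mural score, 292 with the immediate early gene score, 0 at an adjusted p under 0.05 and 399 to 874 with single mice left out.

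Log2 fold changes turned direction as follows. With the Y-linked score that of Arntl was 0.88, Clock 0.22, Nr1d1 -0.10, Dbp -1.19, Fbxw11 -0.14 and Usp2 -0.07. With the immune score that of Cry1 was -0.64, Cry2 -0.05, Tef -0.25 and Pax7 -0.24. With the mural score that of Clock was 0.08, Cry1 -0.27 and Sphk2 -0.05. With the immediate early gene score that of Clock was 0.19, Cry1 -0.65, Sphk2 -0.23 and Pax7 -0.03. With single mice left out Arntl ranged from -0.85 to 0.08, Clock from -0.13 to 0.13, Per2 from -0.52 to 0.46, Per3 from -0.56 to 0.46, Cry1 from -0.19 to 0.40, Nr1d2 from -0.33 to 0.42, Dbp from -0.38 to 0.67 and Camta1 from -0.40 to 0.09. Pax7, with 352 ± 121 CPM for WT and 487 ± 190 CPM for cD2KO (± SD over 3 mice), had a log2 fold change of 0.47. Without Nr1d1 the REV-ERB arm, then Nr1d2 alone, was 0.86 in c130 and -1.02 in fl128. Arntl and Nfil3 fell below the minimum mean of 50. The score of immune markers separates the groups, and a covariate that does so cannot be told apart from genotype. The summed CPM of the mural markers also separates the groups. Their score, a mean of log2 CPM, does not, with c124 above fl126 and fl128. The hour of collection is unknown, and the intervals given rest on 3 mice per group.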
